A study of Homo sapiens with 4 samples.

Results

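A set of 10 genes of fatty acid synthesis, elongation and desaturation were followed in SKOV3 cells given the ginseng saponin 20(S)-Rg3. They were the rows of the deposited count table named ACLY, ACSS2, ACACA, FASN, SCD, ELOVL5, ELOVL6, FADS1, FADS2 and ME1, so 10 of its 40205 genes, and all 10 passed the filter on low counts. SKOV3 is a human ovarian carcinoma cell line grown in culture. The Rg3 group held 2 libraries from SKOV3 cells exposed for 24 h to 20(S)-Rg3 at 80 µg/mL, and the control group held 2 libraries from SKOV3 cells labelled as control, whose vehicle the labels do not name. All libraries came from total RNA depleted of ribosomal RNA, and the labels call the RNA pooled. Nothing in them says that replicate libraries stem from different cultures, so p-values here reflect only how much the 4 libraries vary, which may be technical variation.

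Fatty acids are built in the cytosol from acetyl-CoA. ACLY and ACSS2 supply that acetyl-CoA, ACACA carboxylates it to malonyl-CoA, and FASN joins malonyl-CoA units into palmitate with NADPH, part of which ME1 provides. Elongases such as ELOVL6 and ELOVL5 then lengthen the chain, and the desaturases SCD, FADS2 and FADS1 place double bonds in it. In many tissues these genes are targets of the SREBP transcription factors, with SREBP-1c, a product of SREBF1, best known for lipogenic genes and SREBP-2, the product of SREBF2, best known for cholesterol genes. Tumour cells often make fatty acids themselves, and FASN is abundant in many carcinomas.

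The Rg3 libraries held 30132517 and 24571619 counts, and the control libraries 24482846 and 26731913. The Rg3 libraries resembled each other less than the controls did, with Pearson's r of log2 CPM across genes of 0.981 between the Rg3 libraries and 0.989 between the controls. Between an Rg3 library and a control r was 0.983 to 0.987. Each Rg3 library thus resembled both controls more than it resembled the other Rg3 library. As genes do not replicate one another, r describes the libraries only. Of 8 markers of ovarian carcinoma cells, the keratins KRT7, KRT8 and KRT18 lay at 1556 to 2814 CPM in all 4 libraries, whereas KRT19 and WT1 were at or near 0. ERBB2 and MSLN lay at 42.9 to 66.3 CPM and MUC1 at 1.22 to 2.95 CPM. In both Rg3 libraries KRT18 was lower and MUC1 higher than in both controls (edgeR adjusted p = 0.999 each). The summed level of 5 leukocyte markers was 0.389 and 0.166 CPM in Rg3 and 0.487 and 0.492 CPM in control libraries, and that of 4 adipocyte markers was 0.519 and 0.83 CPM in Rg3 and 0.69 and 0.907 CPM in control libraries. The 4 endothelial markers summed to 16.9 and 16.5 CPM in Rg3 and 18.8 and 19.8 CPM in control libraries. Nearly all of that came from CDH5, while PECAM1 stayed below 0.3 CPM and KDR was at 0.

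Across the 10 genes, the acetyl-CoA suppliers ACSS2 and ACLY and the desaturase SCD were higher in both Rg3 libraries than in both controls. FASN was high in Rg3 replicate 1 alone. The elongases and FADS2 had fold changes between 0.907 and 1.06. None of the 10 passed edgeR's quasi-likelihood test at a Benjamini-Hochberg adjusted p under 0.05, where 5 of 16323 tested genes (0.0306%) were called higher and 0 (0%) lower. At an unadjusted p under 0.05, 4 of the 10 were higher (ACSS2, SCD, ACLY and FASN) and 0 lower, against 1.83% higher and 2.9% lower over all tested genes. DESeq2 called 2 of the 10 higher (ACSS2 and SCD), where it called 0.263% of its genes higher. EdgeR without Rg3 replicate 2 called 4 of the 10 higher (ACLY and FASN as well), in a fit that called 307 of 17065 genes higher (1.8%). Without Rg3 replicate 1 it called 2 of the 10, ACSS2 and SCD, beside 440 of 16937 genes (2.6%). Calls were thus more frequent throughout with an Rg3 library left out. Without control 2 it called SCD, beside 31 of 16824 genes (0.184%), and without control 1 it called 0 of the 10, beside 42 of 16999 genes (0.247%). None of the 10 was called lower by DESeq2, which called 0.121% of its genes lower, or in the fits without Rg3 replicate 1 (2.77% lower), Rg3 replicate 2 (0.879%), control 1 (0.388%) or control 2 (0.107%). The median log2 fold change of the 10 was 0.19, with 9 above 0, and that of all tested genes was 0.014. Without Rg3 replicate 1 the median of the 10 was 0.087. The genes were chosen with earlier results of these data known, so these counts describe them and support nothing further.

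**Figure D1:**
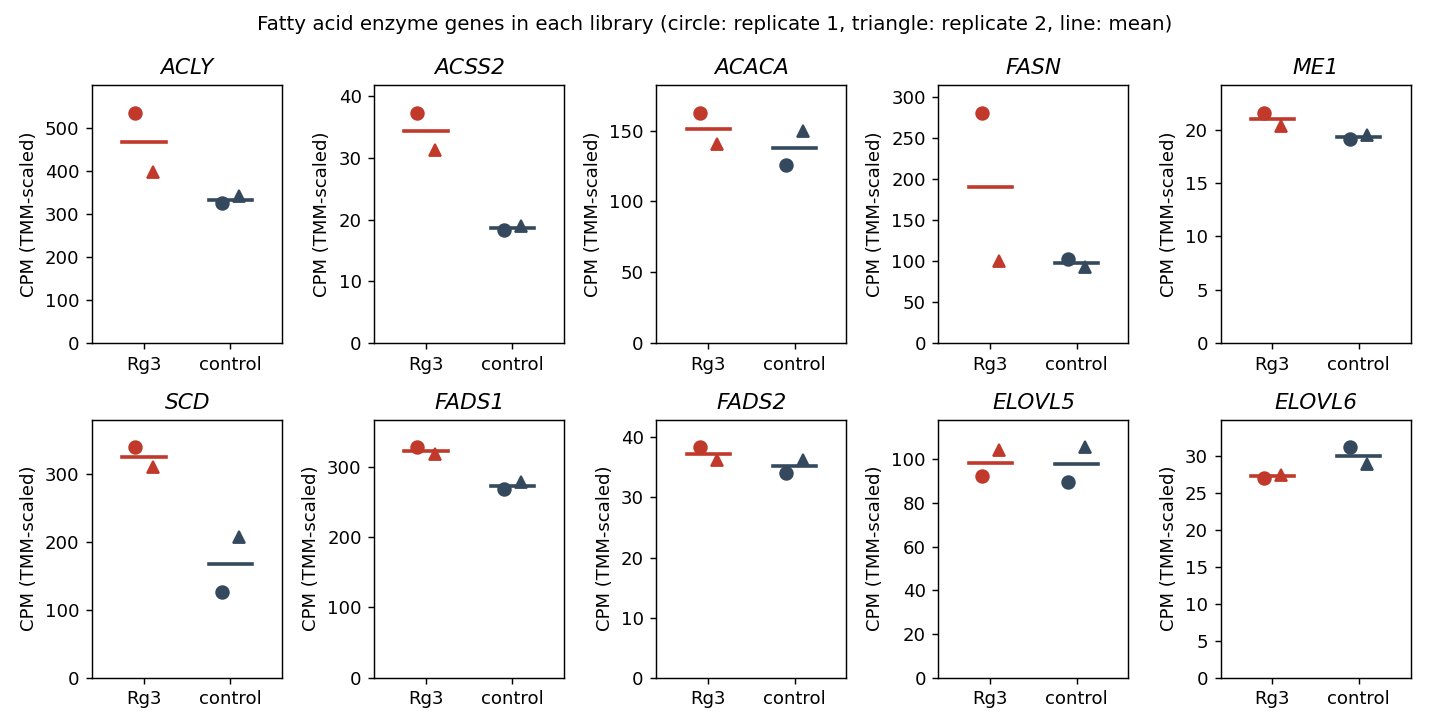
Level of each of the 10 genes in each library, in CPM (TMM-scaled, linear axes from 0), with Rg3 left of control, circles for replicate 1, triangles for replicate 2 and a line at the mean of the group. The Rg3 points of ACLY, ACSS2, SCD, FADS1 and ME1 lie above both control points, and the FASN points lie together except for Rg3 replicate 1 at 281 CPM.

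Levels are given as CPM, read counts brought to a common library size after scaling of the libraries by the trimmed mean of M-values (TMM). CPM takes no account of transcript length, so levels of different genes are not compared. A smaller share of cells expressing a gene and less of its RNA per cell cannot be told apart in bulk samples such as these.

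Among the suppliers of acetyl-CoA, ACSS2, the cytosolic acetyl-CoA synthetase that activates acetate, had 37.4 and 31.2 CPM in Rg3 libraries, against 18.4 and 18.9 CPM in control libraries. The groups did not overlap, and the controls lay close together. The fold change was 1.84, with a 95% interval of 1.43 to 2.37, and the log2 fold change was 0.88 (SE 0.16). By p it ranked at place 35 among all tested genes, ahead of the other 9, yet its edgeR adjusted p was 0.296. With Rg3 replicate 1 left out edgeR called it (log2 fold change 0.75, adjusted p = 0.00541), as it did with Rg3 replicate 2 left out (1.004, adjusted p = 0.000625). With either control left out it did not. DESeq2 gave 0.89 with an adjusted p of 0.00829 and so called it, in a test that called 37 of 14081 genes higher (0.263%).

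ACLY, the ATP citrate lyase that splits citrate exported from mitochondria, had 535 and 397 CPM in Rg3 libraries, against 324 and 341 CPM in control libraries. Both Rg3 libraries were above both controls, but Rg3 replicate 1 stood well above Rg3 replicate 2. The log2 fold change was 0.49 (SE 0.17, edgeR adjusted p = 0.999). Leaving out Rg3 replicate 1 gave 0.26. Leaving out Rg3 replicate 2 gave 0.69, and in that fit ACLY passed with an edgeR adjusted p of 0.00494.

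ACACA, the carboxylase of the committed step, had 163 and 140 CPM in Rg3 libraries, against 125 and 149 CPM in control libraries. The groups overlapped, and the log2 fold change was 0.14 (SE 0.15, edgeR adjusted p = 0.999). Its 95% interval as a fold ran from 0.861 to 1.41. Without Rg3 replicate 1 or without control 1 the log2 fold change was close to 0, with a low of 0.031 over the fits that left out a library.

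FASN, the fatty acid synthase, had 281 and 99.4 CPM in Rg3 libraries, against 102 and 92.6 CPM in control libraries. Rg3 replicate 2 thus lay between the controls, and only Rg3 replicate 1 was high. The counts behind these levels were 8654 and 2397 with Rg3 and 2508 and 2450 in controls, so counting error was small beside the gap. Rg3 replicate 1 exceeded Rg3 replicate 2 by a ratio of 2.82, with an exact binomial 95% interval of 2.7 to 2.95 that covers counting error only. The same ratio between control 1 and control 2 was 1.1 (1.04 to 1.16).

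The log2 fold change of FASN over all libraries was 0.97 with an SE of 0.41, the largest SE of the 10 genes (edgeR adjusted p = 0.999). Without Rg3 replicate 1 it was 0.037 (edgeR adjusted p = 0.868), and without Rg3 replicate 2 it was 1.53 (edgeR adjusted p = 1.15e-05). Of the 8764 genes with a mean of at least 10 CPM, 99.8% differed less between the Rg3 libraries than FASN did. A mean of the Rg3 group, 190 ± 128 CPM (SD, n = 2), describes neither library, against 97.2 ± 6.43 CPM in controls (SD, n = 2).

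ME1, the cytosolic malic enzyme that yields NADPH, had 21.6 and 20.4 CPM in Rg3 libraries, against 19.2 and 19.5 CPM in control libraries. Both Rg3 libraries were slightly above both controls. The log2 fold change was 0.12 (SE 0.15, edgeR adjusted p = 0.999), and the fold lay within a 95% interval of 0.855 to 1.38.

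SCD, the stearoyl-CoA desaturase that makes oleate and palmitoleate, had 340 and 310 CPM in Rg3 libraries, against 126 and 208 CPM in control libraries. The groups did not overlap, and here it was the controls that differed. Control 1 over control 2 was 0.609 (95% interval 0.582 to 0.636, counting error only), against 1.09 (1.06 to 1.13) for Rg3 replicate 1 over Rg3 replicate 2. Of the genes with at least 10 CPM, 99.6% differed less between the controls than SCD did.

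The log2 fold change of SCD was 0.96 (SE 0.23), a fold of 1.95 with a 95% interval of 1.34 to 2.82 and an edgeR adjusted p of 0.608. It was 0.66 without control 1 and 1.36 without control 2. EdgeR called it without control 2 (adjusted p = 0.0215). It also did so with Rg3 replicate 1 left out (0.90, adjusted p = 0.0274) or Rg3 replicate 2 left out (1.02, adjusted p = 0.0218). DESeq2 called it with all 4 libraries (log2 fold change 0.97, adjusted p = 0.00636). The processed pseudogene SCDP1, with which SCD may share reads, had counts of 140 and 94 with Rg3 and 33 and 77 in controls. SCD held 74.8 and 79.6 counts per SCDP1 count in Rg3 libraries and 94.5 and 71.3 in control libraries, so both rows were low in control 1.

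FADS1, the delta-5 desaturase of polyunsaturated fatty acids, had 328 and 318 CPM in Rg3 libraries, against 268 and 278 CPM in control libraries. Both groups were tight and did not overlap. The log2 fold change was 0.24 (SE 0.13, edgeR adjusted p = 0.999), and it stayed between 0.22 and 0.27 over the fits that left out a library. FADS2, the delta-6 desaturase, had 38.3 and 36.2 CPM in Rg3 libraries, against 34.2 and 36.2 CPM in control libraries. Rg3 replicate 2 and control 2 were at the same level, and the log2 fold change was 0.083 (SE 0.14, edgeR adjusted p = 0.999).

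FADS1 and FADS2 lie on chromosome 11 on opposite strands, and in the RefSeq annotation their 5′ ends overlap. The strand setting of the counting is not given in the sources used here, so reads of the shared stretch could have gone to either gene. Per FADS2 count there were 8.55 and 8.78 FADS1 counts in Rg3 libraries, against 7.86 and 7.68 in control libraries.

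Of the elongases, ELOVL5, which lengthens polyunsaturated chains, had 92.3 and 104 CPM in Rg3 libraries, against 89.8 and 105 CPM in control libraries. The groups overlapped fully. Its log2 fold change was 0.0085 (SE 0.15, edgeR adjusted p = 0.999), and the 95% interval of its fold ran from 0.793 to 1.28. The sign turned to −0.080 without Rg3 replicate 2 and −0.093 without control 1. ELOVL6, which extends palmitate to stearate, had 26.9 and 27.4 CPM in Rg3 libraries, against 31.1 and 28.8 CPM in control libraries. It was the only gene of the 10 that was lower in both Rg3 libraries than in both controls, at a log2 fold change of −0.14 (SE 0.14, edgeR adjusted p = 0.999).

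**Figure D2:**
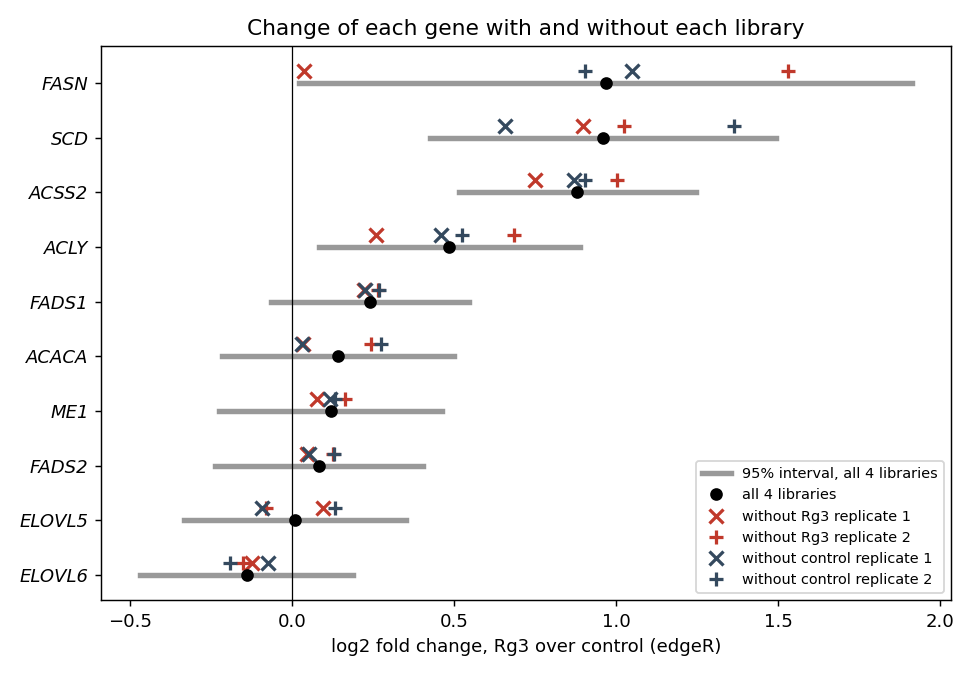
Log2 fold change of each gene, Rg3 over control (edgeR), as a black point with its 95% interval in grey, and as crosses above it the value when 1 library was left out (red for Rg3, dark blue for control). FASN moves to 0.037 without Rg3 replicate 1, against 0.97 with all libraries, and SCD to 1.36 without control 2, while FADS1 stays between 0.22 and 0.27.

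Both Rg3 libraries lay above both controls for 5 of the 10 genes (ACLY, ACSS2, ME1, SCD and FADS1) and below both for 1 (ELOVL6). Over all tested genes 15.3% lay above both controls and 17% below both. The split of 5 and 1 was the same with TMM, RLE and total-count scaling. The sum over the 10 genes was 1862 and 1484 CPM in Rg3 libraries, against 1139 and 1278 CPM in control libraries. Without FASN it was 1582 and 1385 CPM in Rg3 libraries, against 1037 and 1185 CPM in control libraries, so the order of the libraries did not rest on FASN.

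Taken library by library, the median log2 difference of the 10 genes was 0.33 for Rg3 replicate 1 over control 1 and 0.19 over control 2. For Rg3 replicate 2 it was 0.19 over control 1 and 0.082 over control 2. In the lowest of these 4 pairs 6 of 10 genes were above 0, and in the highest 9 were. Over all tested genes the 4 medians lay between −0.0084 and 0.00080.

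**Figure D3:**
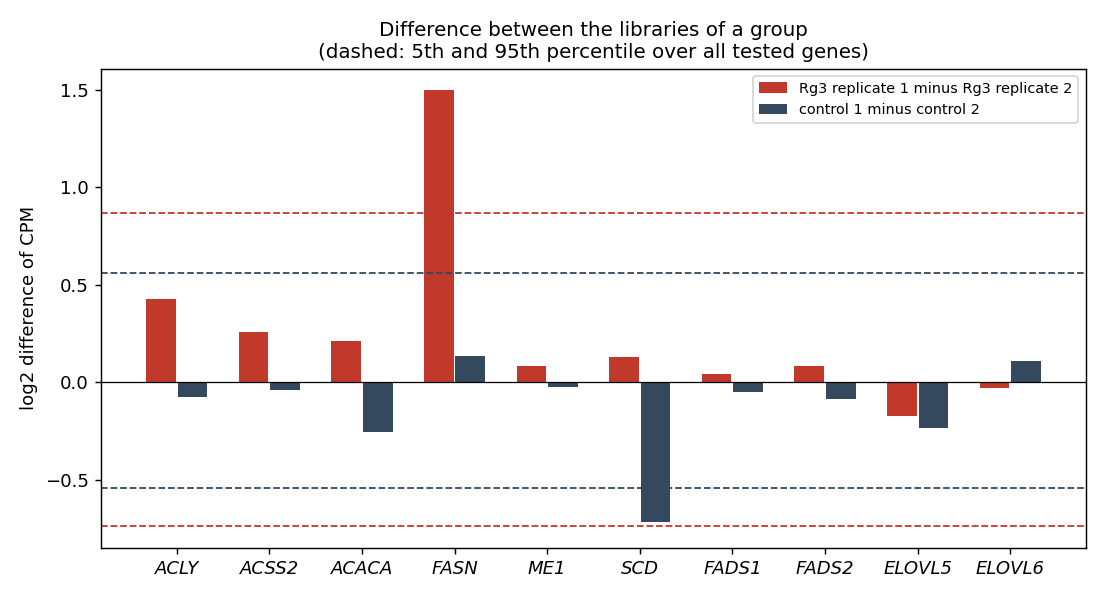
Log2 difference between the libraries of a group for each gene, red for Rg3 replicate 1 minus Rg3 replicate 2 and dark blue for control 1 minus control 2, with dashed lines of the same colour at the 5th and 95th percentile over all 16323 tested genes. FASN in the Rg3 group, at 1.50, and SCD in the controls, at −0.72, lie outside these lines, and the bars of the other genes lie within them.

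Ratios of counts within a library do not depend on depth or scaling, and gene length cancels when libraries are compared. FASN had 0.525 counts per ACLY count in Rg3 replicate 1 and 0.25 in Rg3 replicate 2, against 0.314 and 0.271 in controls. Per ACACA count it had 1.72 and 0.709 with Rg3, against 0.811 and 0.62 in controls. Rg3 replicate 1 alone therefore carried more FASN relative to the enzymes just before it in the pathway.

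For SCD the ratio to FADS2 was 8.86 and 8.58 in Rg3 libraries, against 3.7 and 5.74 in control libraries. The Rg3 libraries lay close together and the controls did not. The ratio of ACSS2 to ACLY was 0.0699 and 0.0787 in Rg3 libraries, against 0.0566 and 0.0554 in control libraries, without overlap. ACACA per ACLY was lower with Rg3 in both libraries, at 0.304 and 0.353, against 0.387 and 0.438 in controls.

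**Figure D4:**
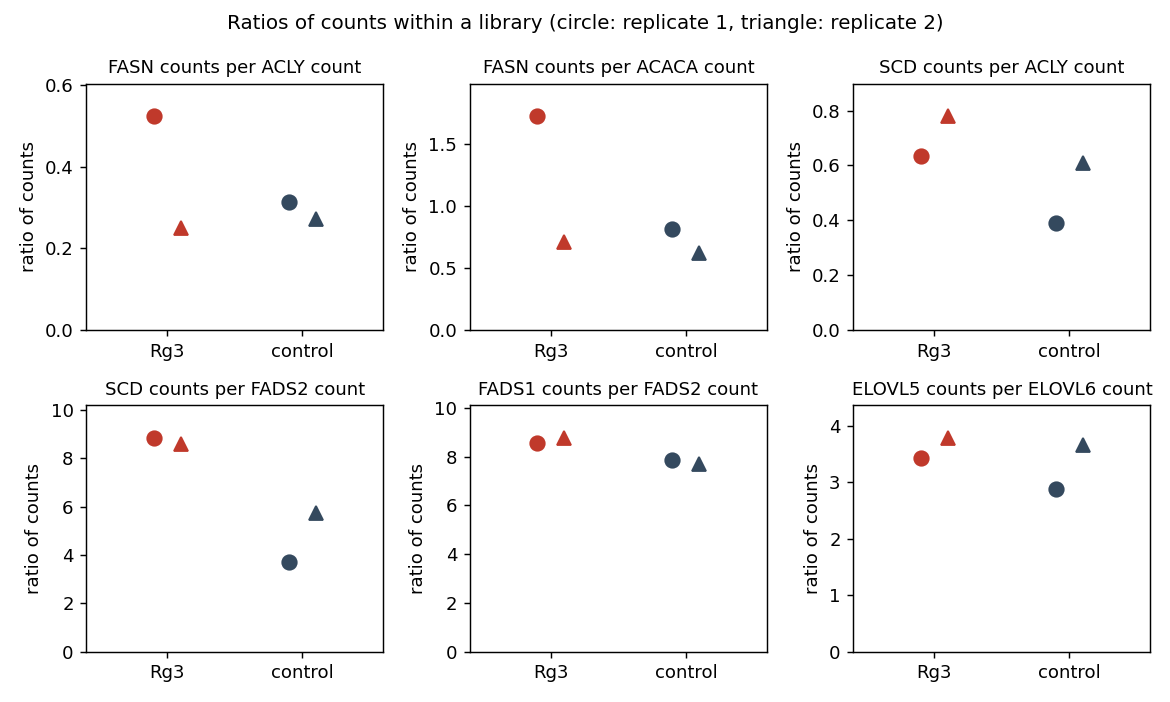
Ratios of raw counts of pairs of genes within each library (linear axes from 0), Rg3 left of control, circles for replicate 1 and triangles for replicate 2. Both ratios of FASN are high in Rg3 replicate 1 only, SCD per FADS2 is 8.86 and 8.58 with Rg3 and 3.7 and 5.74 in controls, and FADS1 per FADS2 varies only between 7.68 and 8.78.

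Promoter windows from RefSeq (GRCh38.p14, 250 bases before to 50 bases after a gene's start) were matched for 9 of the 10 genes, in 14 windows, and FASN had no entry. The build differs from the GRCh37 build of the counts, so the windows serve only for their letters. They are shown for SCD and ACSS2, the genes with the smallest p among the 10, and for ELOVL6, the gene that was lower with Rg3. Capitals mark the CCAAT box (CCAAT), the usual site of NF-Y, and the GC box (GGGCGG), the usual site of Sp1, each on either strand. Both factors are known partners of SREBP at lipogenic promoters. The windows lie at chr10:100346983-100347282 (plus strand) for SCD, chr20:34874739-34875038 and chr20:34876362-34876661 (plus strand) for ACSS2 windows 1 and 2, and chr4:110198566-110198865 (minus strand) for ELOVL6.
SCD: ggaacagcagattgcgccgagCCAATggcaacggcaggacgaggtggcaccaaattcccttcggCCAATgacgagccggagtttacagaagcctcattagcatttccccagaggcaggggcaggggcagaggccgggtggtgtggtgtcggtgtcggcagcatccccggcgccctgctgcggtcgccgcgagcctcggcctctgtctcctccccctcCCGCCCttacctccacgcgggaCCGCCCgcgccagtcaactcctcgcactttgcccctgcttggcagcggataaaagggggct
ACSS2 window 1: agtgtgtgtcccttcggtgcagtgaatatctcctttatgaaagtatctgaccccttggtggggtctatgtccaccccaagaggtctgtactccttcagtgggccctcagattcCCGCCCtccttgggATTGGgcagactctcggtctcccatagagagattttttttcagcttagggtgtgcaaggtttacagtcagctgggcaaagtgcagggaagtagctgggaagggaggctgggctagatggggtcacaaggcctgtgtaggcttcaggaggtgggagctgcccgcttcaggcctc
ACSS2 window 2: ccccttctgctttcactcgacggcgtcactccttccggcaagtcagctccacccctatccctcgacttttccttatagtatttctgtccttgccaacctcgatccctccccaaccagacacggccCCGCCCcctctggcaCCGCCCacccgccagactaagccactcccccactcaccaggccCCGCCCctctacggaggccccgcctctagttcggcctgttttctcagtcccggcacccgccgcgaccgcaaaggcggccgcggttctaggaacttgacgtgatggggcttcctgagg
ELOVL6: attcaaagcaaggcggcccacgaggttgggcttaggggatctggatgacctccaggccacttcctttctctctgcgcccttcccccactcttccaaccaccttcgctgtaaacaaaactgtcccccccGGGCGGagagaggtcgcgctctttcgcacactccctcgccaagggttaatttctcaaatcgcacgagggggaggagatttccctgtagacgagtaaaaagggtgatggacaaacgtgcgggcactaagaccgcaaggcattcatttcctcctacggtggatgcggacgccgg

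The SCD window held 2 CCAAT boxes and 2 GC boxes, and the ELOVL6 window 0 and 1. ACSS2 window 1 held 1 of each, and ACSS2 window 2 held 0 CCAAT boxes and 3 GC boxes. In the windows not shown, CCAAT then GC boxes numbered 2 and 4 in both ACLY windows. The ACACA windows held 0 and 6, 1 and 7, and 2 and 0. ME1 had 0 and 1, FADS1 0 and 2, and ELOVL5 2 and 0. The FADS2 windows held 0 and 0, and 1 and 1. Genes with little change, such as ELOVL5, thus held boxes too, and a link of boxes with the changes was not tested. Over the windows of the 9 genes, 8 of 14 held a CCAAT box and 11 of 14 a GC box, against 34.6% and 45% of all 35116 windows. Several windows of a gene overlap or share letters, so these counts are not independent. The E-box CACGTG stood in 1 of 14 windows, that of ELOVL5, against 7.26% of all windows. A match is a description of the letters and not a site.

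Of the other genes of the pathway, 44 were listed and 39 could be tested, and 0 were called higher or lower by edgeR or by DESeq2. Before adjustment 0 reached p under 0.05 in either direction. Their median log2 fold change was −0.013, with 17 above 0 and 22 below, against 0.19 for the 10 enzymes. Both Rg3 libraries lay above both controls for 4 of the 39 and below both for 6, no more often than over all tested genes (15.3% and 17%). The genes named below stand at an edgeR adjusted p of 0.999 each.

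Paralogues of the 10 enzymes showed no call with all 4 libraries. SCD5, the second human stearoyl-CoA desaturase, had 9.18 and 11.7 CPM in Rg3 libraries, against 10.7 and 12.3 CPM in control libraries, at a log2 fold change of −0.15 (SE 0.20). FADS3, which lies beside FADS2 in the desaturase cluster, had 163 and 125 CPM in Rg3 libraries, against 162 and 141 CPM in control libraries. ACACB, the carboxylase at the mitochondrial outer membrane, had 40.3 and 25.5 CPM in Rg3 libraries, against 39.5 and 34.6 CPM in control libraries. In these 3 genes the groups overlapped. Without Rg3 replicate 1 the log2 fold change of ACACB was −0.53.

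ELOVL1, an elongase of saturated and monounsaturated very long chains, had 79.5 and 81.7 CPM in Rg3 libraries, against 69.8 and 71.6 CPM in control libraries. Both groups were tight, and the log2 fold change was 0.19 (SE 0.13). ELOVL3 lay below both controls in both Rg3 libraries (log2 fold change −0.29, SE 0.19), and ELOVL7 had a log2 fold change of 0.27 (SE 0.36) at about 1 to 2 CPM. ELOVL2 and ELOVL4 had a count of 0 in every library, and ACSS1 and ACSS3 stayed below 0.4 CPM and out of the test. The mitochondrial malic enzymes ME2 and ME3 had log2 fold changes of −0.11 each (SE 0.18 and 0.14), beside 0.12 for ME1.

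The highest log2 fold changes among the other pathway genes with at least 1 CPM were 0.32 for TRIB3, a pseudokinase linked to turnover of the carboxylase, 0.27 for ELOVL7, 0.25 for CYB5B, a cytochrome b5, and 0.24 for CYB5R4. The lowest were −0.55 for OLAH, the thioesterase that releases medium chains, −0.36 for HSD17B8, −0.29 for ELOVL3 and −0.17 for ACACB. OLAH had 0.616 and 1.16 CPM in Rg3 libraries, against 0.973 and 1.59 CPM in control libraries, so its groups overlapped. SLC25A1, the mitochondrial citrate carrier that feeds ACLY, had 106 and 61 CPM in Rg3 libraries, against 91.8 and 84.3 CPM in control libraries. As with FASN and ACLY, Rg3 replicate 1 was above Rg3 replicate 2, and without Rg3 replicate 1 edgeR called SLC25A1 lower, at a log2 fold change of −0.52 (adjusted p = 0.0197), in a fit that called 2.77% of all genes lower.

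Among 13 regulators of lipogenic genes edgeR called 0, DESeq2 called 1 higher (INSIG1), and before adjustment 2 were higher and 1 lower at p under 0.05. Over all tested genes DESeq2 called 0.263% higher, and before adjustment 1.83% were higher and 2.9% lower. Their log2 fold changes had a median of 0.076, with 9 above 0. SREBF1, the gene of SREBP-1, had 27.2 and 20.5 CPM in Rg3 libraries, against 16.6 and 28.9 CPM in control libraries. Control 1 was the lowest library and control 2 the highest, with a log2 difference of −0.80 between them, against −0.72 for SCD. Its log2 fold change was 0.065 (SE 0.27, edgeR adjusted p = 0.999). Whether this spread had a part in the SCD values was not tested.

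SREBF2, the gene of SREBP-2, had 177 and 138 CPM in Rg3 libraries, against 116 and 118 CPM in control libraries, at a log2 fold change of 0.43 (SE 0.16, edgeR adjusted p = 0.999). INSIG1, which retains SREBP in the endoplasmic reticulum and is itself induced by it, had 284 and 239 CPM in Rg3 libraries, against 107 and 89.9 CPM in control libraries (log2 fold change 1.41, SE 0.16, edgeR adjusted p = 0.0598). SREBF2 and INSIG1 were thus higher in both Rg3 libraries than in both controls, and SREBF1 was not. Of the 13 regulators, 4 lay above both controls in both Rg3 libraries, with SREBF2, INSIG1 and NR1H2 among them, and 1 below both. Over all tested genes 15.3% lay above both controls and 17% below both. NR1H3, the gene of LXR alpha, had 18.4 and 13.7 CPM in Rg3 libraries, against 23.4 and 21.3 CPM in control libraries, below both controls (log2 fold change −0.48, SE 0.19, edgeR adjusted p = 0.999). EdgeR called INSIG1 higher whichever library was left out. It called SREBF2 higher without Rg3 replicate 2 (log2 fold change 0.60) and NR1H3 lower without Rg3 replicate 1 (−0.70). Leaving out either Rg3 library made calls more frequent among all genes too, and the other regulators called there are given below.

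NR1H2, the gene of LXR beta, had 28.4 and 25.2 CPM in Rg3 libraries, against 23.3 and 23.1 CPM in control libraries (log2 fold change 0.21, SE 0.15). MLXIPL, the gene of the carbohydrate-responsive factor ChREBP, had 14.5 and 6.35 CPM in Rg3 libraries, against 9.53 and 7.45 CPM in control libraries (log2 fold change 0.30, SE 0.36). SCAP, the sterol sensor that escorts SREBP, had 108 and 67 CPM in Rg3 libraries, against 97.6 and 87.8 CPM in control libraries (log2 fold change −0.081, SE 0.22). MLXIPL and SCAP were highest in Rg3 replicate 1 and lowest in Rg3 replicate 2. The log2 fold change of MLXIPL was 0.77 without Rg3 replicate 2, where edgeR called it higher. That of SCAP was −0.46 without Rg3 replicate 1, where edgeR called it lower.

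Set beside 20 enzymes of cholesterol synthesis in the same fit, the fatty acid enzymes differed less between the groups. The cholesterol enzymes had a median log2 fold change of 1.19, with 5 of 20 called higher (MSMO1, HMGCS1, IDI1, SQLE and CYP51A1), and both Rg3 libraries lay above both controls for 17 of them. The fatty acid enzymes had a median of 0.19, with 0 of 10 called and 5 of 10 above both controls. Over all tested genes 0.0306% were called higher and 15.3% lay above both controls. The difference between these lists was not tested.

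**Figure D5:**
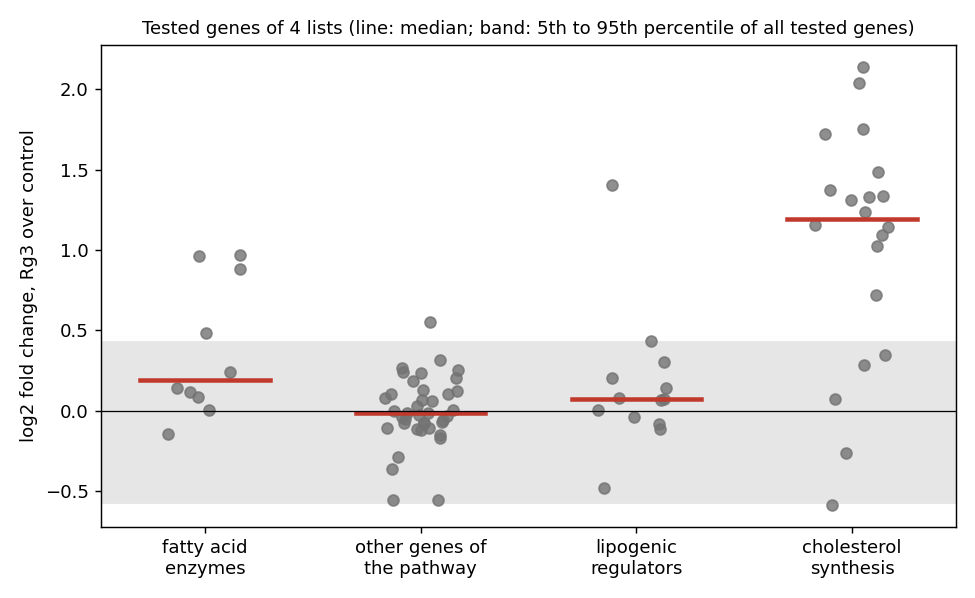
Log2 fold change, Rg3 over control, of each tested gene of 4 lists, with a red line at the median and a grey band from the 5th to the 95th percentile of all tested genes. The medians are 0.19 for the 10 fatty acid enzymes, −0.013 for 39 other pathway genes, 0.076 for 13 lipogenic regulators and 1.19 for 20 cholesterol enzymes.

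The genes most like FASN across the 4 libraries, by the root mean square difference of log2 CPM centred on each gene's mean, were SLC2A6, OSGIN1, PDE2A, KMT2D and MVD, at 0.177 to 0.248. SLC2A6, a member of the glucose transporter family, had 23.6 and 11.5 CPM in Rg3 libraries, against 10.7 and 10.2 CPM in control libraries. MVD, the mevalonate diphosphate decarboxylase, had 26.9 and 11.3 CPM in Rg3 libraries, against 8.07 and 6.69 CPM in control libraries. In all 5 genes Rg3 replicate 1 was the highest library, which follows from picking them for likeness to FASN. The genes most like SCD were LOC100507526, NEU1, NSDHL, FDPS and C6orf223, at 0.139 to 0.228. Of these NSDHL and FDPS are enzymes of cholesterol synthesis, and NEU1, a lysosomal sialidase, had 67.5 and 64.5 CPM in Rg3 libraries, against 32.2 and 39.6 CPM in control libraries. That both Rg3 libraries lay above both controls in these genes, with control 1 lowest, follows from picking them for likeness to SCD. The search covered 8763 genes with at least 10 CPM for each, and the likeness rests on 4 libraries.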

How the data were processed

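Reads were placed on GRCh37, per the submitters' processing notes. The aligner, counter, annotation and strand setting are not given in the sources used here. The deposited table holds raw read counts per gene symbol, not normalized by the authors, with 1 column per library and 0 unused columns. Libraries held 24482846 to 30132517 counts, and intervals marked as such cover counting error only. Of 40205 genes, 14537 had no count.

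Testing used edgeR 4.0.16 under R 4.3.3 (filterByExpr, minimum count 10, minimum total 15, TMM, quasi-likelihood test, treatment as the only term, 2 residual degrees of freedom). All 16323 tested genes were fitted and adjusted together by the Benjamini-Hochberg method, and calls needed an adjusted p under 0.05. Standard errors came from the F statistic and 95% intervals from its degrees of freedom. Alternatives were DESeq2 1.42.0, voom in limma 3.58.1, RLE or total-count scaling, no low-count filter, each library left out and a replicate block. The edgeR code was tested on simulated data. Libraries of a group differed by more than sampling noise (chi-square per degree of freedom 48.8 for Rg3, 9.89 for control).

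The 10 genes, all other lists and the naming rule were chosen with earlier results of these data known. The rule took the 10 genes, their paralogues, 7 regulators, the 4 largest changes per direction among other pathway genes, called cholesterol enzymes and the 5 genes most like FASN and SCD. A gene among the other pathway genes is not reported here, though it stayed in every test and count. SLC25A1, SCDP1 and the examples among the similar genes were picked after their values were seen.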

Additional observations from a re-analysis of the deposited data

How the results depend on the processing

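Of the 10 fatty acid enzymes 0 were called higher with all libraries in edgeR, with voom, and with RLE or total-count scaling. DESeq2 called 2 (ACSS2 and SCD), where it called 0.263% of its genes higher. EdgeR with no filter on low counts called 3 (ACSS2, SCD and FASN), in a fit that called 90 genes higher among all genes with a count. Leaving out 1 library, 0 to 4 were called higher: ACSS2 and SCD without Rg3 replicate 1, these with ACLY and FASN without Rg3 replicate 2, 0 without control 1 and SCD without control 2. None was called lower in any of these fits. Where a group is left with 1 library, that library is assumed to vary like the other group.

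The median log2 fold change of the 10 genes ran from 0.087 without Rg3 replicate 1 to 0.27 without control 2. ELOVL5 changed sign, at −0.080 without Rg3 replicate 2 and −0.093 without control 1 (up to 0.13 without control 2), and the other 9 genes kept their direction in all 10 alternatives. Over all genes 5 were called higher and 0 lower, against 37 and 17 with DESeq2 and 90 and 124 without a low-count filter. Leaving out 1 library gave 31 to 440 higher and 18 to 469 lower. Other pathway genes called numbered 0 to 1 higher (PTPLA) and 0 to 3 lower (ACACB and SLC25A1 among them), all without Rg3 replicate 1. Of the regulators 0 were called, against 1 higher (INSIG1) with DESeq2 and without the filter, and 1 to 3 higher and 0 to 2 lower with 1 library left out. Their median ran from 0.062 to 0.18 over those fits. The cause of these changes was not tested.

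The labels number the libraries 1 and 2 in each group without saying what a number marks. The correlation of same-numbered deviations across genes was 0.149, and 2 pairs do not settle whether the numbers pair the libraries. With the replicate block, 69 of 16323 tested genes were called higher and 86 lower. Those called higher included 3 of the 10 enzymes (ACSS2, SCD and FASN) and 1 regulator (INSIG1), and 0 of either list were called lower. With 2 libraries per group, an exact permutation test of a single gene could not go below p = 0.333.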
